A study of Homo sapiens with 2 samples.

Results

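The 10 genes described here carry iron through a liver cell: the ferritin subunits FTL and FTH1, the transferrin receptor TFRC, transferrin TF, the iron exporter SLC40A1 (ferroportin), the iron importer SLC11A2 (DMT1), the hormone HAMP (hepcidin), the ferritin receptor NCOA4, and the iron regulatory proteins ACO1 and IREB2. They were chosen by symbol out of the 36601 genes counted, and all 10 were among them. Their levels were read in 3 classes of cells of HepaRG, an established human hepatic line supplied as terminally differentiated cells, which contains hepatocyte-like cells beside less differentiated ones. The cells were cultured for 7 days and received only the vehicle, 0.1% DMSO, for 24 h. After dissociation in the presence of inhibitors of transcription and translation (actinomycin D and anisomycin) they were fixed, and 10000 cells per library were loaded on a 10x Genomics droplet kit that captures the 3′ ends of polyadenylated RNA. The study asked how single cells of this model respond to chemicals that induce stress. The 2 libraries used here hold vehicle cells only, so no treatment is compared, and the labels give both libraries the same biological replicate number. Every SD and p-value below therefore rests on these libraries alone, whose differences may be technical variation. An SD covers how far they differ. A p-value covers how the difference between classes varies between the libraries, with a spread estimated largely over all genes.

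Iron leaves the blood bound to transferrin, enters cells through the transferrin receptor, crosses the endosomal membrane through DMT1 and is stored inside ferritin, a shell of mixed heavy (FTH1) and light (FTL) subunits. The heavy chain oxidises iron and the light chain aids its deposition in the core. NCOA4 delivers ferritin to lysosomes for breakdown, ferroportin exports iron, and hepcidin, made in hepatocytes, causes ferroportin to be degraded. The iron regulatory proteins bind iron-responsive elements, hairpins in the untranslated regions of several of these mRNAs. Bound in a 5′ untranslated region they block translation, and bound in the 3′ untranslated region of TFRC they protect the mRNA, so that for the ferritins mRNA level and protein level can part. The liver is a main store of iron and the source of plasma transferrin.

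The hairpins are shown because they are the part of these mRNAs that the iron regulatory proteins read. Protein-coding transcripts of GENCODE 29 (GRCh38) were searched on the transcribed strand for the letters CAGTGN flanked on each side by 5 bases that pair with each other (G-T pairs allowed), with an unpaired C before the first 5. Of 19641 genes 280 (1.43%) held such a match anywhere in a transcript, and 5 of the 10 members did: FTH1, FTL and SLC40A1 in the 5′ untranslated region, and TFRC and TF in the 3′ untranslated region. Capitals mark the 6 loop bases, and each line runs 5′ to 3′ along the mRNA.
FTH1, chr11:61967574-61967603, minus strand: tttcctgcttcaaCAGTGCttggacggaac
FTL, chr19:48965334-48965363, plus strand: tctcttgcttcaaCAGTGTttggacggaac
SLC40A1, chr2:189580661-189580690, minus strand: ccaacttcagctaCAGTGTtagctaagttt
TFRC site a, chr3:196050979-196051008, minus strand: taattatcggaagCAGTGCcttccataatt
TFRC site b, chr3:196050575-196050604, minus strand: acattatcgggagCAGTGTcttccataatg
TFRC site c, chr3:196050510-196050539, minus strand: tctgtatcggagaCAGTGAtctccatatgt
TFRC site d, chr3:196050463-196050492, minus strand: taattatcgggaaCAGTGTttcccataatt
TF, chr3:133792672-133792701, plus strand: gtgaatgcattttCAGTGAaagattataac
The ferritin hairpins were identical at 27 of 30 bases. The 4 matches of TFRC lay within 546 bases of its 3′ untranslated region. They are lettered here by their order along the mRNA, not by established names, and need not be all its elements. A match is a description of letters and not a tested binding site: TF is not an established target of the iron regulatory proteins, and no match was found in SLC11A2, HAMP, NCOA4, IREB2 or ACO1. A miss says only that these letters were not there: SLC11A2 has an established element in 1 form of its 3′ untranslated region, and the search also found none in EPAS1 and CDC42BPA, which are known to carry one.

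Cells were placed in classes by UMIs (unique molecular identifiers, 1 per captured molecule) per 10000 of the cell. ALB-high cells had at least 50 from ALB (albumin), dividing cells had at least 10 in sum from TOP2A, MKI67 and CENPF, and remaining cells met neither rule. Replicate 1 kept 257 ALB-high, 1435 dividing and 2713 remaining cells, and replicate 2 kept 357, 1606 and 2881; another 49 and 50 cells met both rules and were left out. Both classes are ranges along a scale and not cell types: 102 and 150 of the cells over the ALB rule lay below 100, 130 and 149 cells between 25 and 50 lay just outside it, and 657 and 746 of the cells over the dividing rule lay below 20. In ALB-high cells 15 of 17 hepatocyte markers were at least 2-fold above both other classes in both libraries, and in dividing cells so were 9 of 11 proliferation markers. Summed immune markers reached 11.5 to 18.3 CPM (UMIs per 1000000 of the class) and summed erythroid markers at most 0.345 CPM in any class. Mesenchymal markers were lower in ALB-high cells (92.1 and 120 CPM) than in remaining (690 and 700 CPM) and dividing cells (768 and 771 CPM). POSTN alone gave 425 and 428 CPM of the sum in remaining cells. Biliary markers summed to 354 and 363 CPM in ALB-high cells and 784 and 795 CPM in remaining cells. KRT19 gave 757 and 767 CPM of the latter. Median UMIs per ALB-high, dividing and remaining cell were 20256, 20834 and 16225 in replicate 1 and 12103, 12137 and 9602 in replicate 2, and the median mitochondrial share was 13.7%, 7.90% and 9.16% in replicate 1 and 13.7%, 8.05% and 9.38% in replicate 2. The libraries shared 7 barcodes.

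Ferritin mRNA was among the most abundant in every class, and the members spanned from there to no detected molecule. FTL ranked between 4 and 7 and FTH1 between 5 and 10 of all genes with a UMI, over classes and libraries. In remaining cells the order after the ferritins was ACO1, TFRC and NCOA4 near 100 CPM, then IREB2 and SLC40A1, then SLC11A2, then TF. TFRC and NCOA4 stood next to each other at 104 and 98.0 CPM in replicate 1 and at 98.2 and 95.4 CPM in replicate 2, so that the highest NCOA4 value lay just under the lowest TFRC value. In dividing cells ACO1 and TFRC overlapped, at 91.9 and 95.4 CPM and at 93.5 and 90.1 CPM. TF stood elsewhere in ALB-high cells, where it came after the ferritins and ranked 66 and 81 of all genes, and there SLC40A1 and TFRC overlapped. A 3′ UMI is counted once per molecule whatever the transcript's length, so these levels were compared between genes without a length correction. Other differences between genes in capture or counting were not corrected. VIM, a gene of the mesenchymal list, had only 2.50 and 2.44 CPM in remaining cells. Comparisons between genes, such as FTH1 with FTL or ACO1 with IREB2, carry that limit.

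**Figure D1:**
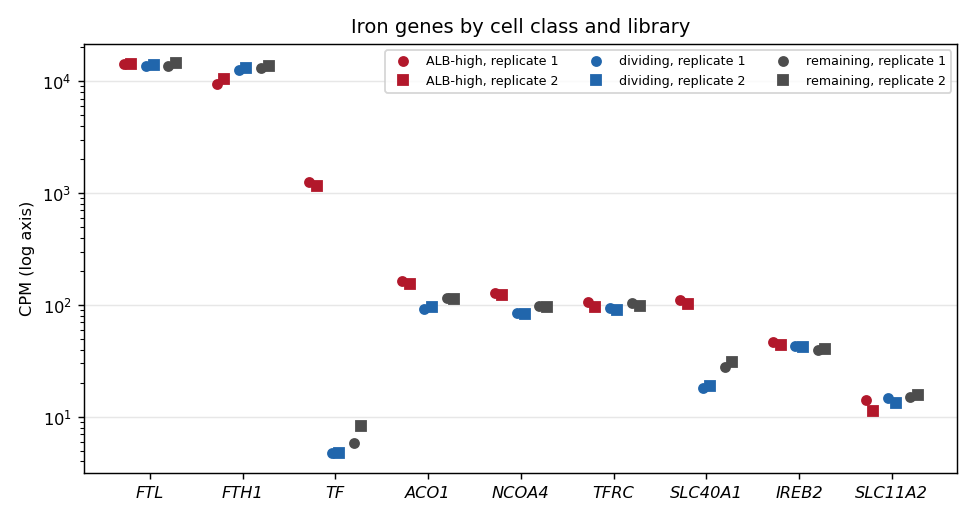
CPM (UMIs per 1000000 of the class, log axis) of the 9 members with measurable levels, by gene; colour gives the cell class and the symbol gives the library (circle replicate 1, square replicate 2), with no error bars because each point is 1 library. TF and SLC40A1 separated ALB-high cells from both other classes, TF at 1269 and 1151 CPM against 8.31 CPM or less, while FTL lay between 13567 and 14390 CPM throughout; HAMP is left out because a log axis cannot show 0.

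Between ALB-high and remaining cells 8 of the 9 members tested differed, 7 higher and 1 lower in ALB-high cells, where 48.1% of 19143 genes tested differed (edgeR, adjusted p below 0.05). In the same fit 23.9% of all genes were higher and 24.2% lower. The median log2 fold change of the members was 0.33 and that of all genes -0.02. At least 2-fold differences were found for 2 members, TF and SLC40A1, where 15% of all genes passed that mark. HAMP had too few counts to test. The text gives each comparison's values for the members with their class levels; the classes are cut from the same libraries, and comparisons that use the same class share its counts.

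Of the storage genes, FTL (ENSG00000087086, chr19:48965301-48966878) had 14205 and 14188 CPM in ALB-high cells of replicates 1 and 2, 13628 and 14045 in dividing cells, and 13567 and 14390 in remaining cells. The ranges of the classes overlapped, and the order was not the same in both libraries. The fold change of FTL between ALB-high and remaining cells was 1.12 (log2 0.17 ± 0.04 SE, edgeR adjusted p = 0.0034) after TMM scaling, which sets the median gene near no change. With library totals alone it was 0.02 on the log2 scale (edgeR adjusted p = 0.706), so the call for FTL rests on the scaling. That scaling lowered the size of ALB-high sums (factors 0.947 and 0.942) and raised that of remaining sums (1.05 and 1.04). It shifts each fold of ALB-high cells upward against the printed CPM, which are not TMM scaled. For FTH1 the CPM ratios to remaining cells were 0.715 and 0.765, beside a fold of 0.817. Without TMM scaling the median of all genes moved by -0.145. Then 3456 genes were called higher and 6303 lower in ALB-high cells in place of 4574 and 4625.

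FTH1 (ENSG00000167996, chr11:61959718-61967660) was lower in ALB-high cells. Its levels were 9437 and 10428 CPM there, 12550 and 13119 CPM in dividing cells, and 13200 and 13640 CPM in remaining cells. The ALB-high values did not overlap those of the other classes, while dividing cells lay just under remaining cells in each library. The fold against remaining cells was 0.817 (log2 -0.29 ± 0.04 SE, edgeR adjusted p = 1.03e-05) and that against dividing cells 0.831 (log2 -0.27 ± 0.04 SE, edgeR adjusted p = 2.17e-05). Both calls were kept under each of the 17 other settings of the fit, including library totals, with log2 values from -0.44 to -0.23 against remaining cells. Between dividing and remaining cells FTH1 did not pass the test (log2 -0.02, 95% interval -0.12 to 0.07), and neither did FTL (log2 0.03, 95% interval -0.07 to 0.12).

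The ratio of FTH1 to FTL, which needs no scaling between classes, was 0.664 and 0.735 in ALB-high cells, 0.921 and 0.934 in dividing cells, and 0.973 and 0.948 in remaining cells. Both ALB-high values were the lowest in their library, and dividing cells lay below remaining cells in each library by less than ALB-high cells did. The same was seen cell by cell. FTH1 exceeded FTL in 14.0% and 16.8% of ALB-high cells, 36.8% and 39.9% of dividing cells, and 45.6% and 44.4% of remaining cells. The spread within a class was wide: the middle 80% of remaining cells of replicate 1 ran from 0.662 to 1.46, and those of ALB-high cells from 0.442 to 1.09.

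**Figure D2:**
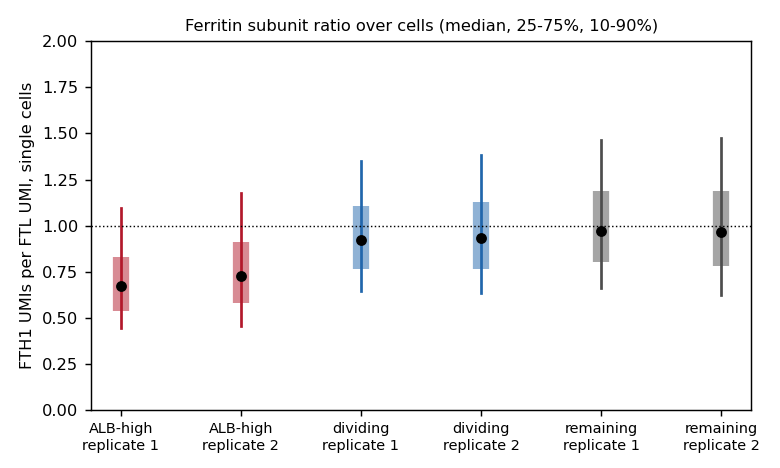
FTH1 UMIs per FTL UMI in single cells, by class and library; the point is the median, the thick bar the 25th to 75th percentile and the thin line the 10th to 90th. Medians of ALB-high cells were 0.671 and 0.726 and those of remaining cells 0.971 and 0.964, with ranges that overlapped widely; the dotted line marks equal counts.

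FTL and FTH1 varied together between cells. Over cells thinned to 4000 UMIs, Pearson's r of their log levels was 0.55 and 0.53 in ALB-high cells (256 and 352 cells), 0.65 and 0.61 in dividing cells (1406 and 1591 cells), and 0.69 and 0.64 in remaining cells (2679 and 2818 cells). The cells of a value share 1 library and 1 capture. Among 6145 genes detected in at least 10% of remaining cells, FTH1 had the highest mean correlation with FTL (0.67), followed by TXN (thioredoxin, 0.35) and TMSB10 (thymosin beta 10, 0.30). For FTH1 the next after FTL were TMSB10 (0.34) and the elongation factor EEF1A1 (0.33). With the mitochondrial share of the cell, r was -0.25 and -0.23 for FTL and -0.28 and -0.38 for FTH1 in ALB-high cells. No gene had a mean correlation over the libraries above 0.081 with TFRC, which in counts this sparse is no finding, and HAMP could not be assessed.

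Of the genes that bring iron in, transferrin and its receptor parted. TF (ENSG00000091513, chr3:133745956-133796640), the plasma iron carrier, had 1269 and 1151 CPM in ALB-high cells, 4.72 and 4.77 in dividing cells, and 5.85 and 8.31 in remaining cells. The 2 values of ALB-high cells stood far from the other 4. TF was 197-fold higher in ALB-high than in remaining cells (log2 7.62 ± 0.06 SE, edgeR adjusted p = 1.66e-25) and 276-fold higher than in dividing cells (log2 8.11 ± 0.07 SE, edgeR adjusted p = 5.63e-25). TF, like ALB, is a plasma protein made by hepatocytes. Both calls were kept in 17 other settings, but the size moved with the cells counted: the log2 value was 5.76 against dividing cells when cells of both rules were placed among them, and 8.48 against remaining cells limited to those under 5 ALB UMIs per 10000.

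Within ALB-high cells TF was uneven. A TF UMI was found in 82.1% of 257 cells (95% exact binomial interval 76.9% to 86.6%) and 75.1% of 357 cells (70.2% to 79.5%), and after thinning to 4000 UMIs in 62.5% and 61.9%. The median ALB-high cell had 4.47 and 3.61 TF UMIs per 10000, and the 90th percentile was at 38.8 and 33.3, so the cells with most TF lay far above the median cell. In dividing and remaining cells a TF UMI was found in 7.60% and 4.61%, and in 7.92% and 6.07%, and after thinning in 1.89% to 2.70%. Free RNA in the suspension could give such a share, and its part was not tested. These intervals cover counting error only.

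TFRC (ENSG00000072274, chr3:196027183-196082189), the main receptor for transferrin-bound iron, lay near the same level in all classes. It had 106 and 96.8 CPM in ALB-high cells, 93.5 and 90.1 CPM in dividing cells, and 104 and 98.2 CPM in remaining cells. ALB-high and remaining cells overlapped, and dividing cells were lowest in both libraries. The test called TFRC higher in ALB-high than in remaining cells (log2 0.15 ± 0.05 SE, edgeR adjusted p = 0.0209) and lower in dividing than in remaining cells (log2 -0.10 ± 0.04 SE, edgeR adjusted p = 0.0225). The first call was lost in 6 of 17 other settings, among them library totals (log2 0.00, edgeR adjusted p = 0.951), and the second in 5. Against dividing cells ALB-high cells were higher (log2 0.25 ± 0.05 SE, edgeR adjusted p = 3.83e-04), a call lost only after thinning (edgeR adjusted p = 0.0776).

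SLC11A2 (ENSG00000110911, chr12:50979401-51028566), which moves ferrous iron across membranes, was low in all classes. Its levels were 14.1 and 11.3 CPM in ALB-high cells, 14.9 and 13.4 CPM in dividing cells and 15.2 and 15.8 CPM in remaining cells, from 82 and 55 UMIs in the ALB-high sums. It did not pass the test between ALB-high and remaining, dividing and remaining, or ALB-high and dividing cells (edgeR adjusted p = 0.499, 0.456 and 0.805). The difference of ALB-high from remaining cells had a 95% interval of -0.41 to 0.16 on the log2 scale. Differences within that interval are not excluded by these counts.

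Ferroportin followed transferrin in direction but not in size. SLC40A1 (ENSG00000138449, chr2:189560579-189583758) had 110 and 102 CPM in ALB-high cells, 18.2 and 18.98 CPM in dividing cells, and 28.2 and 30.9 CPM in remaining cells. The 3 classes did not overlap, and dividing cells were lowest in both libraries. The level in ALB-high cells was 4.00-fold that of remaining cells (log2 2.00 ± 0.07 SE, edgeR adjusted p = 4.56e-16) and 6.15-fold that of dividing cells (log2 2.62 ± 0.07 SE, edgeR adjusted p = 1.59e-17). The difference between dividing and remaining cells was smaller (fold 0.651, log2 -0.62 ± 0.06 SE, edgeR adjusted p = 6.75e-08), and all 3 calls were kept in each of 17 other settings.

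SLC40A1 mRNA was also detected in a larger share of ALB-high cells than of cells of either other class. After thinning, 33.2% and 36.9% of ALB-high cells had an SLC40A1 UMI, against 9.85% and 10.4% of remaining and 7.82% and 6.29% of dividing cells. Such a share depends on the level of a gene as well as on its spread over cells. Whether SLC40A1 and TF were spread differently over ALB-high cells was not tested.

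HAMP (ENSG00000105697, chr19:35280716-35285143), the hormone that controls ferroportin, was not detected in ALB-high cells. It had 0 UMIs in 5800385 and 4886895 UMIs of ALB-high cells, which allows up to 0.517 and 0.614 CPM (3 counts), and 0 of 257 and 0 of 357 cells, which allows a share of cells with a UMI of up to 1.17% and 0.84%. A single UMI was found in 1 remaining cell of replicate 2 and none in dividing cells. This is a statement about the counts of this assay, since other genes were also near 0 in the class that should carry them: APOA2, a major hepatocyte apolipoprotein, had 0.172 and 0.614 CPM in ALB-high cells, and UBE2C, a mitotic gene, had 0.193 and 0.477 CPM in dividing cells. The genes upstream of HAMP differed in level. Of the iron-sensing proteins at the cell surface, TFR2 had 0.172 and 0.409 CPM and HFE 9.14 and 9.62 CPM in ALB-high cells. BMP6, a ligand that induces HAMP and is made largely by endothelial cells in liver, had 0 UMIs there, while the receptors BMPR1A (62.9 and 58.9 CPM) and BMPR2 (76.9 and 75.3 CPM) were well detected. These genes were chosen for display after their values were seen.

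The ferritin receptor and both iron regulatory proteins were higher in ALB-high cells than in the other classes taken as a whole. NCOA4 (ENSG00000266412, chr10:46005088-46030714) had 128 and 122 CPM in ALB-high cells, 85.5 and 82.8 CPM in dividing cells, and 98.0 and 95.4 CPM in remaining cells. The 3 classes did not overlap. ALB-high cells had 1.43-fold the level of remaining cells (log2 0.52 ± 0.05 SE, edgeR adjusted p = 1.21e-08), a call kept in all 17 other settings. Dividing cells were below remaining cells (log2 -0.16 ± 0.04 SE, edgeR adjusted p = 8.36e-04), a call lost in 3 of 17 settings: with DESeq2, after thinning, and with remaining cells limited to those under 5 ALB UMIs per 10000.

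ACO1 (ENSG00000122729, chr9:32384603-32454769), the regulatory protein that doubles as cytosolic aconitase when it holds an iron-sulphur cluster, had 165 and 156 CPM in ALB-high cells, 91.9 and 95.4 CPM in dividing cells, and 115 and 112 CPM in remaining cells. No class overlapped another. ACO1 was 1.56-fold higher in ALB-high than in remaining cells (log2 0.64 ± 0.05 SE, edgeR adjusted p = 3.20e-10) and lower in dividing cells (fold 0.844, log2 -0.24 ± 0.04 SE, edgeR adjusted p = 1.01e-05), and all 17 other settings kept both calls.

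IREB2 (ENSG00000136381, chr15:78437431-78501456), the regulatory protein that is degraded when iron is plentiful, had 47.1 and 43.6 CPM in ALB-high cells, 43.4 and 42.0 CPM in dividing cells, and 39.5 and 40.5 CPM in remaining cells. No class overlapped another, though the lowest ALB-high value was just above the highest dividing one. IREB2 was 1.26-fold higher in ALB-high than in remaining cells (log2 0.33 ± 0.08 SE, edgeR adjusted p = 9.89e-04), a call lost only after thinning (edgeR adjusted p = 0.0578). It was also higher in dividing than in remaining cells (log2 0.14 ± 0.05 SE, edgeR adjusted p = 0.0184), but 6 of 17 other settings lost that call. ACO1 thus exceeded IREB2 by 3.50 and 3.57 times in ALB-high cells, 2.11 and 2.27 times in dividing cells, and 2.92 and 2.77 times in remaining cells.

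**Figure D3:**
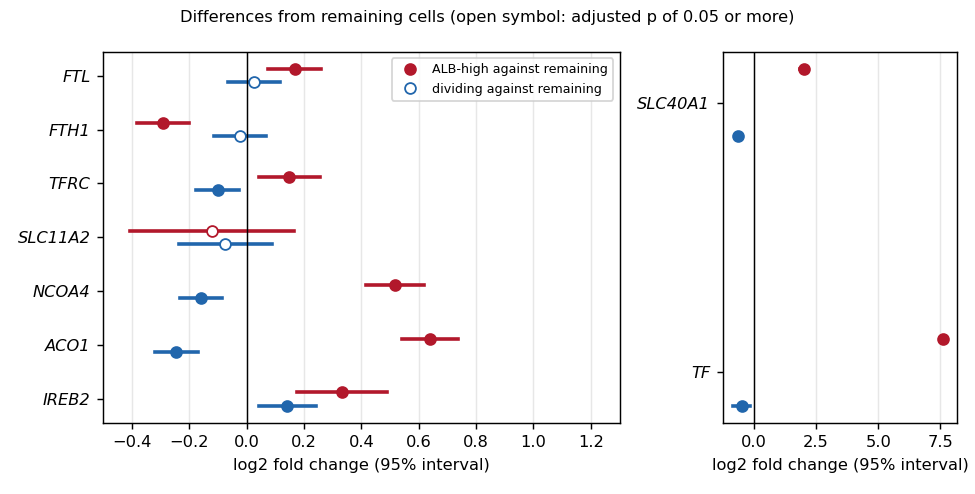
Log2 fold change of the 9 tested members in ALB-high (red) and dividing (blue) cells against remaining cells, from edgeR over 2 libraries; bars are 95% intervals, filled points passed an adjusted p below 0.05, and SLC40A1 and TF have an axis of their own. FTH1 was the member called lower in ALB-high cells (-0.29), and SLC40A1 was lower in dividing cells (-0.62) and higher in ALB-high cells (2.00).

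Between dividing and remaining cells 6 of 9 members differed, 1 higher and 5 lower in dividing cells, where 48.7% of all genes tested differed (24.8% higher and 23.9% lower). The members' median log2 fold change was -0.10 and that of all genes -0.02, and none of the members reached 2-fold, as did 5.9% of all genes. IREB2 was higher, and TFRC, TF, SLC40A1, NCOA4 and ACO1 were lower. With DESeq2 only 2 members passed, with a dividing threshold of 5 only 3, and after thinning only 2. TF was lower in dividing cells by 0.49 on the log2 scale (edgeR adjusted p = 0.0157), but this direction depended on which cells were counted. With the cells that met both rules placed among dividing cells it was 1.86 higher (edgeR adjusted p = 2.17e-11), and with remaining cells limited to those under 5 ALB UMIs per 10000 it was 0.36 higher (edgeR adjusted p = 0.0388).

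Between ALB-high and dividing cells 8 of 9 members differed, 7 higher and 1 lower in ALB-high cells, against 56.5% of all genes tested (27.3% higher and 29.2% lower). TF and SLC40A1 passed 2-fold, where 22.3% of all genes did. NCOA4 was 1.60-fold higher (log2 0.68 ± 0.05 SE, edgeR adjusted p = 1.94e-10) and ACO1 1.85-fold higher (log2 0.88 ± 0.05 SE, edgeR adjusted p = 1.84e-12) in ALB-high cells. The calls of FTL (log2 0.14 ± 0.04 SE, edgeR adjusted p = 0.0094) and IREB2 (log2 0.19 ± 0.08 SE, edgeR adjusted p = 0.0397) were lost in 3 and 8 of 17 other settings.

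Remaining cells still held cells in S phase: 20.9% and 22.1% had at least 10 UMIs per 10000 from an 11-gene S phase list. In them SLC40A1 was at 18.3 and 22.6 CPM against 31.4 and 33.9 CPM in the other remaining cells. NCOA4 was at 84.8 and 83.4 CPM against 102 and 99.6 CPM. IREB2 was at 33.6 and 33.0 CPM against 41.4 and 43.2 CPM. For SLC40A1 and NCOA4 the S phase cells thus lay on the side of dividing cells, while for IREB2 they lay on the other side. The ferritins differed little, with FTH1 at 13079 and 13535 CPM against 13241 and 13678 CPM. These splits have no test.

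Along albumin, with dividing cells left out, the members moved in different shapes. In 6 bins from under 1 to 200 or more ALB UMIs per 10000, TF went from 3.23 to 2703 CPM in replicate 1 and from 3.68 to 2658 CPM in replicate 2, and SLC40A1 from 22.2 to 118 CPM and from 24.7 to 127 CPM. In the bin from 5 to 20, well under the ALB rule, SLC40A1 was at 46.6 and 48.0 CPM and TF at 15.3 and 10.6 CPM. Both were above their first bin there, TF by the larger fold in each library. ACO1 went from 109 to 169 CPM and from 106 to 157 CPM. NCOA4 was at 91.7 and 88.6 CPM in the first bin. It was at 130 and 119 CPM in the bin from 5 to 20, near its ALB-high level although these are remaining cells. In the top bin it had 126 and 104 CPM. TFRC was highest in the middle, at 128 CPM in the bin from 20 to 50 of replicate 1 and at 113 CPM in the bin from 5 to 20 of replicate 2, and had 96.4 and 83.4 CPM in the top bin.

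FTH1 went along the same bins from 13448 to 8509 CPM and from 13844 to 8755 CPM, while FTL stayed between 12782 and 14547 CPM in replicate 1 and between 13512 and 15474 CPM in replicate 2. The ratio of FTH1 to FTL was 0.982, 0.995, 0.926, 0.85, 0.716 and 0.585 from the lowest to the highest bin of replicate 1. In replicate 2 it was 0.969, 0.966, 0.87, 0.817, 0.775 and 0.648. The ratio was thus lower in each bin from 5 upward than in the bin before it, also below the ALB rule, in both libraries. The median mitochondrial share went over the same bins from 8.72% to 14.1% and from 8.79% to 14.7%. With cells over 15% mitochondrial UMIs removed, 171 and 230 ALB-high cells were left. The ratio was then 0.724 in ALB-high and 0.963 in remaining cells (means of 2 libraries). In all cells it was 0.70 ± 0.05 and 0.96 ± 0.02 (SD, n = 2). The limit was not set to match the classes in mitochondrial share, and the part of that share in the ratio was not tested. No test was run on the bins, which hold 105 to 1973 cells each.

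**Figure D4:**
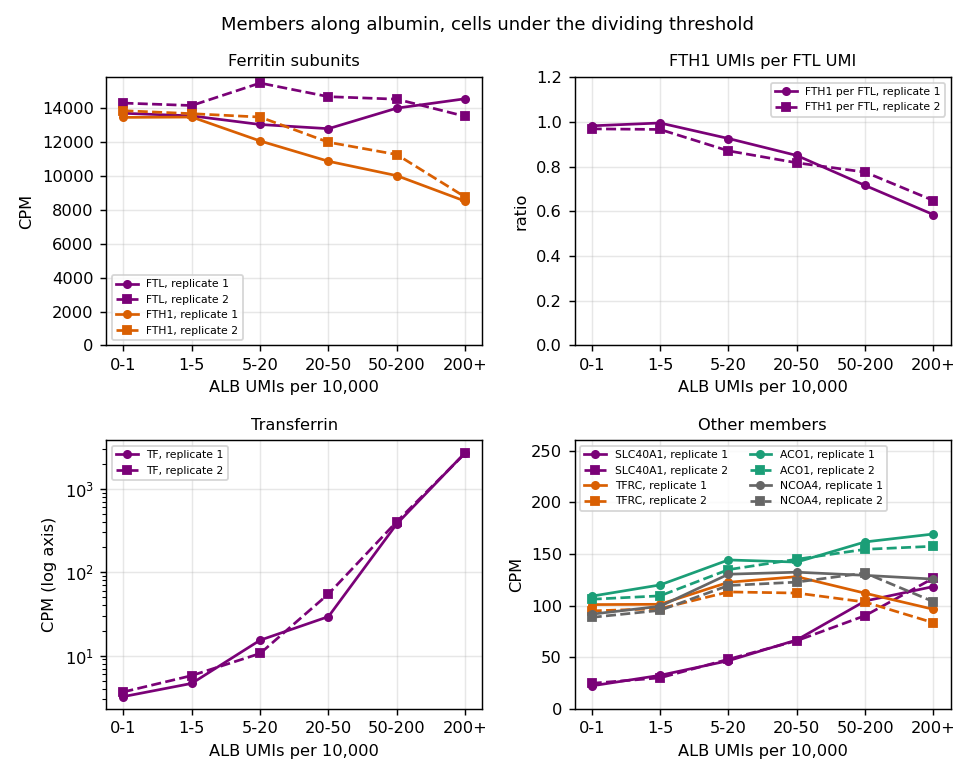
Levels of members in bins of ALB UMIs per 10000 (horizontal axis, unequal steps), cells under the dividing threshold; vertical axes are CPM (log axis for TF) or the FTH1 to FTL ratio, solid lines with circles are replicate 1 and dashed lines with squares replicate 2. The ratio was lowest in the top bin (0.585 and 0.648, against 0.982 and 0.969 in the first), TF and SLC40A1 were highest there, and TFRC was highest between 5 and 50.

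Other genes of the pathway were read from 8 lists holding 101 genes, and the counts below set ALB-high against remaining cells in the same fit, beside the all-gene median of -0.02 and the 23.9% of all genes called higher and 24.2% called lower. A list with about that share of calls, such as cytosolic assembly (5 of 9) or haem (10 of 18) below, is near the background of 48.1%. In uptake and reduction 5 of 8 tested genes were higher and 1 lower (median log2 0.26). SLC39A14, an importer of iron not bound to transferrin, was at 154 and 156 CPM against 57.0 and 55.5 CPM (log2 1.60, edgeR adjusted p = 1.45e-16), and SLC39A8 of the same family was 0.54 higher. LRP2, an endocytic receptor, had 14 and 12 UMIs in ALB-high cells against 6 and 0 in remaining cells, and the reductase STEAP2 was 0.62 lower on the log2 scale. In oxidation and binding in plasma 3 of 5 were higher and 1 lower (median log2 2.41). Ceruloplasmin CP, the ferroxidase that works with ferroportin, was at 370 and 310 CPM against 69.1 and 73.2 CPM (log2 2.41, edgeR adjusted p = 3.28e-18). Haptoglobin HP (log2 4.97) and haemopexin HPX (log2 5.40), which bind haemoglobin and haem, were also higher, and HEPHL1, with 0 and 1 UMIs in ALB-high cells, was called lower.

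In hepcidin control 9 of 20 tested genes were higher and 5 lower (median log2 0.11). HJV, a co-receptor that raises HAMP, had 3.62 and 4.09 CPM in ALB-high cells against 0.192 and 0.066 CPM in remaining cells. BMP2, a ligand of that pathway, was 0.87 higher on the log2 scale. TMPRSS6, a protease that cuts HJV, was called higher from 3 UMIs in each ALB-high sum, and ERFE, an inhibitor of the pathway, was called lower from 3 and 1. In cytosolic chaperones and turnover of the iron regulatory proteins 0 of 10 were higher and 7 lower (median log2 -0.27). FBXL5, the iron sensor that marks IREB2 for degradation, was at 54.1 and 62.4 CPM in ALB-high cells, 81.8 and 83.7 CPM in remaining cells and 166 and 158 CPM in dividing cells. The classes did not overlap: FBXL5 was lower in ALB-high cells (log2 -0.37, edgeR adjusted p = 1.44e-04) and 2.03-fold higher in dividing than in remaining cells (log2 1.02, edgeR adjusted p = 2.97e-15). The glutaredoxin GLRX3 was 0.64 lower and SKP1, a partner of FBXL5, 0.34 lower in ALB-high cells, and PCBP3 had 0 UMIs in both ALB-high sums against 34 and 13 in remaining cells.

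In mitochondrial iron and iron-sulphur clusters 10 of 19 tested genes were higher and 1 lower (median log2 0.19). IBA57 (log2 0.82), GLRX5 (0.76), CISD1 (0.60) and CISD3 (0.60) were higher in ALB-high cells, whose mitochondrial share was also higher (13.7% in both libraries against 9.16% and 9.38%); the part of that share was not tested. In cytosolic cluster assembly 3 of 9 were higher and 2 lower (median log2 0.12), with CIAO2A 0.72 and CIAPIN1 0.34 higher and CIAO2B 0.46 and NDOR1 0.39 lower on the log2 scale. CIAO2A is the factor that serves ACO1 and CIAO2B the one that serves most other proteins. In haem synthesis, breakdown and transport 8 of 18 were higher and 2 lower (median log2 0.16): ALAS1 (log2 0.78) and ALAD (0.92), the first enzymes of the pathway, and the transporters SLC46A1 (1.05) and ABCG2 (1.11) were higher. Of other mRNAs known to carry an iron-responsive element, that of the hypoxia factor EPAS1 was higher (log2 0.54, edgeR adjusted p = 4.25e-08). The kinase CDC42BPA was lower (log2 -0.56) and the phosphatase CDC14A did not pass (log2 -0.40, edgeR adjusted p = 0.132).

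**Figure D5:**
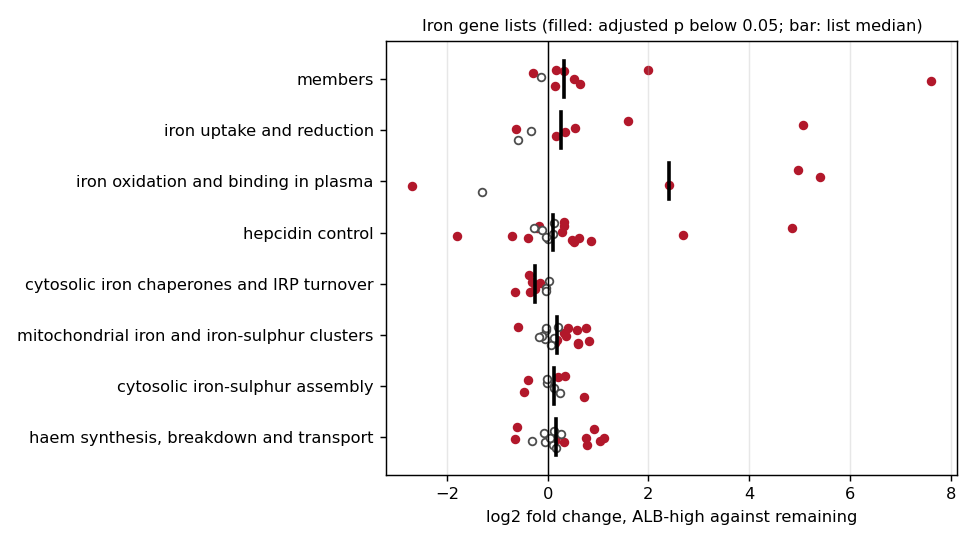
Log2 fold change of ALB-high against remaining cells for each tested gene of the first 7 iron lists and the members; each point is a gene (filled where the edgeR adjusted p was below 0.05), the bar is the list's median, and vertical scatter within a list is only for display. PCBP3, with 0 UMIs in ALB-high cells, is not drawn, and without it each called gene of the chaperone list lay below 0 while the plasma list had a median of 2.41.

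Between dividing and remaining cells the first 7 lists had 0 higher and 2 lower of 8 in uptake, 0 and 2 of 5 in plasma, 6 and 8 of 20 in hepcidin control, 5 and 1 of 10 in chaperones, 8 and 7 of 19 in mitochondrial clusters, 2 and 2 of 9 in cytosolic assembly, and 6 and 5 of 18 in haem. Among all genes 24.8% were higher and 23.9% lower in that comparison, and no list is singled out here. CP was lower in dividing cells (26.7 and 29.5 CPM against 69.1 and 73.2 CPM in remaining cells, log2 -1.31, edgeR adjusted p = 1.48e-12), as SLC40A1 was.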

How the data were processed

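The deposited matrices hold UMI counts per barcode and gene, which the authors made with Cell Ranger 7.0.0 per the file headers, with STAR and GRCh38 per the submitters' processing notes; the handling of intronic reads is not given in the sources used here. The 12 antibody features held 0 UMIs. Filters of 500 genes and 1000 UMIs (minimum) and a 25% mitochondrial share (maximum) kept 4454 of 4591 barcodes (85475317 UMIs before filtering) and 4894 of 4998 (57246647). No doublet caller was run and free RNA was not removed; removing the top 5% of barcodes by UMIs was one alternative. The features hold no entry named as a pseudogene of FTL or FTH1, and how reads shared with such copies were assigned was not tested.

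Counts were summed per library and class (6 sums, 4 coefficients, 2 residual degrees of freedom). They were tested with edgeR 4.0.16 (R 4.3.3): quasi-likelihood, TMM, filterByExpr, with the library as a term because the classes come from the same libraries. Benjamini-Hochberg ran over all genes passing the filter, the genes of the class rules included. The class-rule genes were then left out, which leaves the 19143 genes counted. Each SE is the fold change over the square root of F. The spread of each gene was moderated toward that of all genes (17.9 prior degrees of freedom beside the 2 residual). Small p-values thus rest largely on this shared spread. Classes were cut from the cells then compared, so p-values are small. DESeq2 1.42.0 and 16 further settings were alternatives. The scripts were tested on simulated data. The members, lists and thresholds were chosen with earlier results of these data known. All members are named; from other lists up to 4 genes with the largest called change in ALB-high cells, then by level; 1 gene is not reported here.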

Additional observations from a re-analysis of the deposited data

How the results depend on the processing

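Of 459 member fold changes (27 over 17 other settings), 416 kept direction and call, 38 lost the call and 5 turned direction, each between dividing and remaining cells. TF was 1.86 with cells of both rules counted as dividing and 0.36 with remaining cells under 5 ALB UMIs per 10000. Without a call in either setting, FTL was -0.0145 with library totals and -0.0017 with a dividing threshold of 20, and SLC11A2 was 0.0497 after thinning. Genes called numbered 9199 for ALB-high against remaining, 9326 for dividing against remaining and 10825 for ALB-high against dividing cells. After thinning to 4000 UMIs these were 5370, 5968 and 6881 (15352 genes tested), and with DESeq2 the second was 4411. Members called between dividing and remaining cells went from 6 to 2 with DESeq2, 3 with a dividing threshold of 5 and 2 after thinning. The FTH1 to FTL ratio of dividing cells moved from 0.927 to 0.917 with cells of both rules counted as dividing. Leaving out either library gave ratios of 0.664 to 0.735 (ALB-high), 0.921 to 0.934 (dividing) and 0.948 to 0.973 (remaining); gene tests could not be fitted with 1 library, which leaves no residual degrees of freedom.

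Without the replicate block, which here is the library, 9100, 8904 and 10767 genes were called, and the members that lost their call were FTL between ALB-high and dividing cells (adjusted p = 0.0629) and TFRC between dividing and remaining cells (adjusted p = 0.0744), both by edgeR. With no filter on low counts the median of all genes moved by -0.153 and -0.101 in the comparisons with ALB-high cells, and by library totals by -0.145 and -0.104. SLC11A2 rested on 82 and 55 UMIs in ALB-high cells, and HAMP on 0.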
